A study of Mus musculus with 32 samples.

Results

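Bone marrow-derived macrophages of Nur77-knockout mice (BMDM-Nur77-KO) were profiled by RNA sequencing before and 1 h after the addition of lipopolysaccharide (LPS). The data described here are the 4 libraries of BMDM-Nur77-KO at 1 h of LPS and the 4 untreated libraries of the same genotype at 0 h, 8 of 32 samples in all. They were chosen by their labels, without use of a measured value, and 1 transcript per gene, the one with the highest mean count, stood for the gene. The other samples were BMDM-Nur77-KO at 5 and 18 h and macrophages of wild-type littermates (BMDM-WT) at the same 4 times, with 4 libraries in each group. All mice were male, of the strain C57Bl6/J and 6 to 12 weeks old. The knockout is a whole-body deletion of Nr4a1, the gene of Nur77, made with Cre recombinase driven by the CMV promoter in mice whose Nr4a1 locus was flanked by loxP sites. Cre itself was then bred out. Genotype in the labels of the knockout samples reads cre. In both genotypes, marrow cells were grown for 7 days in medium conditioned by L929 cells, which supplies the macrophage growth factor CSF1, and treated cells received 100 ng/ml LPS. How many mice the 4 libraries of a group came from is not given in the sources used here. The p-values thus measure the spread between libraries, which may be technical. That spread was estimated for each gene from all 32 libraries.

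LPS, a component of the wall of Gram-negative bacteria, is sensed on macrophages by TLR4 with the help of CD14 and MD-2. The receptor activates NF-kB and the MAP kinases, which induce within minutes a set of primary response genes that need no new protein. These encode cytokines and chemokines, transcription factors of the AP-1, EGR and NR4A families, and the inhibitors that later end the signal. Interferon beta, itself among the early products, then induces a secondary wave of interferon-stimulated genes through STAT2 and IRF factors. Nur77 is an orphan nuclear receptor of the NR4A family and one of these immediate-early genes. The comparison asks what the early LPS response looks like when it is deleted.

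The 8 libraries held between 9271205 and 12816358 counts (median 10917535.5), and replicates differed by more than sampling noise in every pair. The first principal component, with 73.9% of the variance, separated 1 h from 0 h. Along the second, with 7.91%, replicate 4 at 0 h and replicate 1 at 1 h lay apart from their groups. Replicate 3 at 1 h was over 2 times higher than each other 1 h library in 11 of the genes that rose, which are described with the interferon genes below. Macrophage markers summed to 13959 to 16450 CPM (counts scaled to a common library size) at 0 h and 15629 to 17762 at 1 h, and all 10 of the list were present. Markers of other cell types were low. The 10 neutrophil markers summed to 27.4 to 35.9 CPM at 0 h and 44.1 to 52.6 at 1 h. Ly6g and Elane were at or under 3 counts in each library. S100a8, S100a9 and Ngp had means of 9.31, 9.33 and 8.86 CPM at 0 h and 12.3, 13.2 and 13.9 CPM at 1 h. Ngp passed the threshold for p (log2 fold change 0.64 ± 0.16, adjusted p = 0.0050, edgeR) but was not called. Dendritic cell markers summed to 2.73 to 3.60 CPM at 0 h and 5.30 to 6.09 at 1 h, with Xcr1 among the genes that rose. At either time, B cell markers summed to at most 3.51 CPM, fibroblast markers to 2.18, mast cell markers to 3.46 and erythroid markers to 0.477. T and NK cell markers summed to at most 15.5 CPM. Most of this was Cd4, at 13.4 ± 1.39 CPM at 0 h and 12.4 ± 1.25 CPM at 1 h, whereas Cd3e, Cd3g, Cd3d and Cd8a were at or under 3 counts. In bulk RNA, a change in the number of cells of a type and a change in RNA per cell cannot be told apart.

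Nr4a1 was examined first, because it is the deleted gene. Its level in BMDM-Nur77-KO, in CPM scaled by the trimmed mean of M-values (TMM), was 4.92, 4.61, 4.44 and 7.00 CPM at 0 h and 243, 179.8, 146 and 193 CPM at 1 h. In BMDM-WT the same transcript had 19.4, 15.5, 25.7 and 18.1 CPM at 0 h and 484, 485, 358 and 421 CPM at 1 h. The knockout libraries thus lay below every wild-type library at either time, but counts on the locus (chr15:101253902-101274795) remained and rose with LPS by a log2 fold change of 5.18 ± 0.19 (SE, n = 4 and 4, adjusted p = 8.2e-20, edgeR). Counts are summed over the whole transcript, and the exons removed by Cre are not given in the sources used here, so this measure does not show whether the remaining RNA contains the deleted part. The related receptors, which bind the same DNA element, also rose. Nr4a3 went from 0.514 ± 0.225 to 6.53 ± 1.54 CPM (SD, log2 fold change 3.68 ± 0.30) and Nr4a2 from 1.30 ± 0.156 to 6.82 ± 1.36 CPM (2.36 ± 0.24), with no overlap between 0 h and 1 h in either. In BMDM-WT, their log2 fold changes were 3.76 ± 0.25 and 2.86 ± 0.23.

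After 1 h of LPS, 364 genes rose and 147 fell in BMDM-Nur77-KO, of 11279 tested (3.23% and 1.3%). These shares are the background for the counts in all gene lists below. A gene was called when 2 conditions held. Its p from the quasi-likelihood test of edgeR, adjusted by the method of Benjamini and Hochberg across the whole table, was under 0.05, and its log2 fold change was above 1 or below -1. Genes that rose had a median log2 fold change of 2.14, against -1.35 for those that fell and 0.00 for all genes tested. In 350 of the genes that rose, all 1 h libraries lay above all 0 h libraries. The groups were apart in the opposite direction in 140 of the genes that fell. Among all genes tested, 10.7% lay apart upwards and 9.39% downwards. Changes upwards reached further, since 192 genes rose by a log2 fold change above 2 (108 by one above 3), and 18 fell by one below -2. How far a fall can be measured depends on the level at 0 h, which was low for the genes that fell. Per kilobase of transcript, the genes that rose went from a median of 2.85 RPKM at 0 h to 15.0 RPKM at 1 h, and those that fell from 1.66 to 0.641 RPKM. For all genes tested, the medians were 7.82 and 8.00 RPKM.

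**Figure D1:**
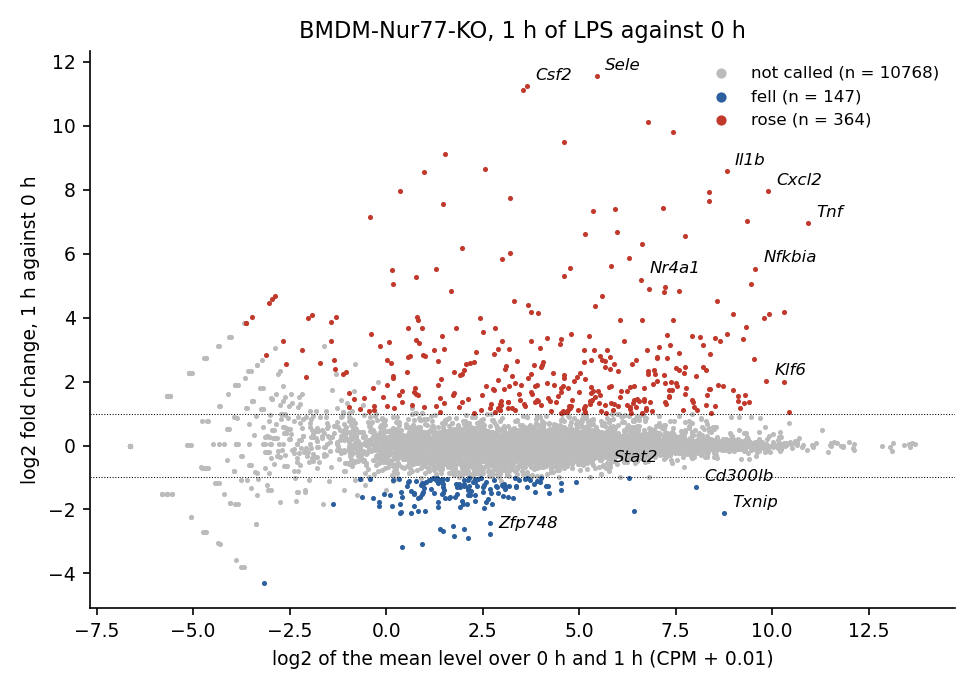
Log2 fold change between 1 h and 0 h of LPS in BMDM-Nur77-KO (y axis) against the log2 mean level over both times in CPM (x axis), 1 point per gene tested. Red points are the 364 genes that rose and blue points the 147 that fell. Dotted lines mark log2 fold changes of 1 and -1, and the points that rose spread much further from 0 than those that fell.

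Cytokine genes held some of the largest changes. Of 36 cytokine and growth factor genes tested, 21 rose and none fell, with a median log2 fold change of 1.85 (0.00 for all genes tested). Tnf, the cytokine that starts much of acute inflammation, had 26.4, 32.4, 31.9 and 32.1 CPM at 0 h and 4139, 3782, 3821 and 3600.3 CPM at 1 h. The 1 h libraries lay far above those at 0 h, and the gain in CPM was the largest among the genes that rose (log2 fold change 6.96 ± 0.16, adjusted p = 2.3e-25, edgeR). Il1b, which encodes the pyrogenic cytokine interleukin-1 beta, rose from 1.37, 2.53, 1.84 and 3.50 CPM to 1097, 768, 790.5 and 942 CPM (log2 fold change 8.58 ± 0.20). Il1a, its alarmin relative, rose from 3.25 ± 0.869 to 654 ± 43.2 CPM. Il10, the main cytokine that restrains macrophages, was already present at 1 h, with 122 ± 11.8 CPM against 0.718 ± 0.333 at 0 h (log2 fold change 7.41 ± 0.18). The gene of the costimulatory ligand 4-1BBL, Tnfsf9, rose from 2.71 ± 0.353 to 656 ± 92.7 CPM.

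Several cytokines started from no more than 3 counts in each library at 0 h, so that only a lower bound can be given against that floor. Csf2, the granulocyte-macrophage growth factor GM-CSF, had no count at 0 h and 26.3, 24.1, 22.3 and 26.6 CPM at 1 h, at least 107-fold higher. Ifnb1, interferon beta, likewise had no count at 0 h and 26.4, 19.4, 20.3 and 26.7 CPM at 1 h, at least 99.7-fold higher. Both went from no count in any library to similar levels in all 4. Lif, a cytokine of the interleukin-6 family, was at least 50.9-fold higher at 1 h, and Il12b, the subunit shared by interleukins 12 and 23, at least 79.6-fold. For Il23a and Il6 these bounds were 24.7-fold and 16.8-fold. Il6 was still low at 1 h, at 3.93, 3.08, 4.31 and 4.35 CPM, and its mean at 5 h was 358 CPM. Of the genes that rose, 35 in all had at most 3 counts in each library at 0 h.

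Chemokines, which draw leukocytes to the site of infection, rose in 12 of 21 genes tested, and none fell (median log2 fold change 1.77). Without replicate 3 at 1 h, 11 rose, since Cxcl9 was not called. Cxcl2, a neutrophil attractant, went from 6.92, 6.82, 8.35 and 8.19 CPM to 1847, 1959, 1879 and 1844 CPM. This change, with the smallest adjusted p of all genes tested, was 7.96 ± 0.11 on the log2 scale (adjusted p = 1.1e-30, edgeR). Its neighbour on chromosome 5, Cxcl1, rose from at most 6 counts in a library to 220.3 ± 14.7 CPM (log2 fold change 10.10 ± 0.35). The monocyte and T cell attractants Ccl3, Ccl4 and Ccl5 rose by 1.77 ± 0.11, 3.45 ± 0.19 and 3.26 ± 0.25. Of 15 chemokine and chemoattractant receptor genes 1 rose, where 3.23% of all genes tested did. It was Ccrl2, an atypical receptor that binds chemerin, which went from 13.2 ± 1.67 to 373 ± 29.2 CPM.

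**Figure D2:**
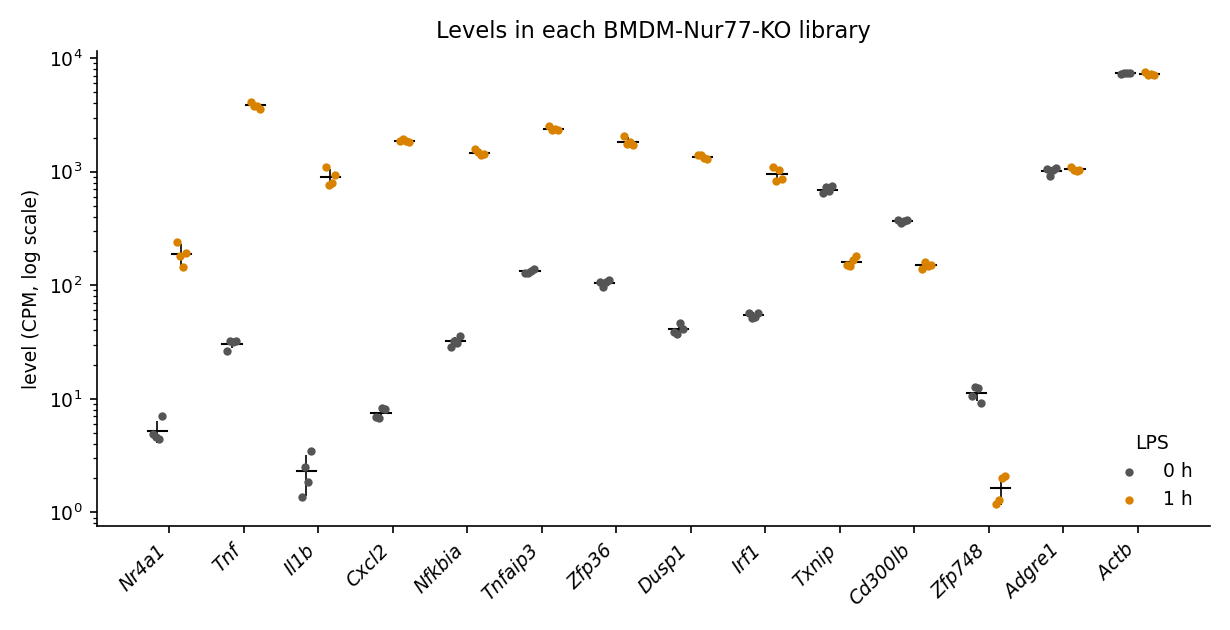
Levels of 14 genes in CPM (log scale) in each BMDM-Nur77-KO library at 0 h (grey) and 1 h (orange) of LPS. Points are libraries, horizontal bars means and vertical bars 1 SD (n = 4). Inflammatory genes and their inhibitors lie higher at 1 h, Txnip, Cd300lb and Zfp748 lie lower, and Adgre1 and Actb overlap.

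Genes of the NF-kB pathway rose in 11 of 20 tested, with none falling (median log2 fold change 1.25). Nfkbia, which encodes the inhibitor IkB-alpha that retains NF-kB in the cytoplasm, had 28.8, 32.6, 31.1 and 35.5 CPM at 0 h and 1578, 1482, 1409 and 1434 CPM at 1 h (log2 fold change 5.53 ± 0.08, adjusted p = 6.9e-30, edgeR). Tnfaip3, the ubiquitin-editing enzyme A20 that shuts off TLR and TNF signalling, had 128, 129, 133 and 139.8 CPM at 0 h and 2526, 2346, 2367 and 2351 CPM at 1 h (log2 fold change 4.18 ± 0.06). Neither gene overlapped between the groups. Nfkbiz, a nuclear cofactor that NF-kB needs at a subset of its targets, rose by 7.02 ± 0.11, and Nfkbie by 2.45 ± 0.13. Among the DNA-binding subunits, Rel rose by 2.26 ± 0.13, Nfkb2 by 1.27 ± 0.15 and Relb by 1.23 ± 0.20, whereas Nfkb1 had a log2 fold change of 0.37 ± 0.08 and was not called.

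Further genes of feedback regulation moved with them. Of 32 such genes, a mixed list not made of inhibitors alone, 14 rose and none fell. Zfp36, whose product tristetraprolin binds and destabilizes cytokine mRNAs such as that of Tnf, rose from 106, 96.4, 108 and 112 CPM to 2076, 1769.7, 1822 and 1703 CPM (log2 fold change 4.13 ± 0.09). Socs3, an inhibitor of STAT3 signalling, rose from at most 9 counts in a library to 346 ± 27.7 CPM (log2 fold change 9.79 ± 0.29). Acod1, the enzyme that makes itaconate, rose by 6.30 ± 0.19. Of 15 MAP kinase phosphatase and Sprouty or Spred genes, 7 rose. Dusp1, which inactivates p38 and JNK, went from 38.6, 37.0, 46.7 and 41.5 CPM to 1415, 1405, 1315 and 1299 CPM (log2 fold change 5.05 ± 0.11), and Dusp2 rose by 5.86 ± 0.27. Dusp6, specific for ERK, had a log2 fold change of -0.53 ± 0.13 and was not called. Rasgef1b, a guanine nucleotide exchange factor, Plk2, a kinase of the Polo family, and Klf6, a transcription factor, were among the 10 called genes that gained most CPM. Their log2 fold changes were 4.00 ± 0.09, 1.99 ± 0.07 and 2.01 ± 0.14.

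Promoters were searched for 7 short motifs in the window from 250 bases before to 50 bases after the annotated start (RefSeq, GRCm38.p6, the assembly also named mm10, 1 start per gene, both strands). These were the kB site of NF-kB, the AP-1 site TGANTCA, the cyclic AMP response element TGACGTCA, the CArG box of serum response factor, the TATA sequence TATAAA, the element AAAGGTCA that Nur77 binds as a monomer, and the interferon response element GAAANNGAAA. A CArG box can hold TATAAA within it, and no other of these motifs can hold another. Sequences were matched for 277 of the 364 genes that rose, 115 of the 147 that fell and 8929 of the 11279 tested. A kB site was present in 22.0% of the promoters of genes that rose, 6.09% of those that fell, 9.95% of those tested and 8.19% of all 27025 promoters. For AP-1 the shares were 10.8%, 3.48%, 5.01% and 7.92% in the same order, and for TATAAA they were 19.5%, 10.4%, 7.00% and 14.2%. The cyclic AMP response element was found in 3.61%, 2.61%, 3.40% and 1.85%, and the CArG box in 1.08%, 0%, 1.22% and 1.59%. The Nur77 element was found in 1 of the 277 promoters of genes that rose (0.361%), in none of those of genes that fell, in 0.874% of those tested and in 1.46% of all promoters. For the interferon response element the shares were 7.94%, 0.870%, 3.37% and 3.49%. Matches were counted as letters, and binding was not measured.

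The 250 bases before the start of 7 genes described in the text are shown, 5′ to 3′ on the strand of the gene. Those that rose all hold a marked motif, so they do not stand for the genes that rose in general. Of other genes with large changes, Tnf and Il1b held only TATAAA in the window searched, and Csf2 and Socs3 held none of the 7 motifs. Irf1 and Txnip are described further on. Capitals mark the kB sites of Cxcl2, Nfkbia and Irf1, both kB sites and the AP-1 site of Tnfaip3, the CArG box of Zfp36 and the cyclic AMP response element of Dusp1. The promoter of Txnip, which fell, held none of the 7 motifs and is shown for comparison. In Cxcl2 a pair of overlapping matches, whose first bases lie 97 and 96 bases before the start, gives 1 run of capitals. The sites of Nfkbia and Irf1 begin 29 and 13 bases before the start, those of Tnfaip3 125 and 12 bases before it, with the AP-1 site at 136. A TATAAA match further upstream in Tnfaip3 is left in lower case.
Cxcl2 (chr5:90903649-90903898, plus strand): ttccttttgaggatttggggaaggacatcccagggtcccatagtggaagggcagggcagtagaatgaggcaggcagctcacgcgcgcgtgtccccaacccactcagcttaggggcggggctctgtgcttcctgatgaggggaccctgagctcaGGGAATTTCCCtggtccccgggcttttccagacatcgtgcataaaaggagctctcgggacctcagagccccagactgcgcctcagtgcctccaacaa
Nfkbia (chr12:55492648-55492897, minus strand): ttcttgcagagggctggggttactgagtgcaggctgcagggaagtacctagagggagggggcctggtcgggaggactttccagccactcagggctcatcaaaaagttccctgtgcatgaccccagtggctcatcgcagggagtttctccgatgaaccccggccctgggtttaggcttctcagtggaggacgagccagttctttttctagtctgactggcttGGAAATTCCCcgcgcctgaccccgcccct
Tnfaip3 (chr10:19015411-19015660, minus strand): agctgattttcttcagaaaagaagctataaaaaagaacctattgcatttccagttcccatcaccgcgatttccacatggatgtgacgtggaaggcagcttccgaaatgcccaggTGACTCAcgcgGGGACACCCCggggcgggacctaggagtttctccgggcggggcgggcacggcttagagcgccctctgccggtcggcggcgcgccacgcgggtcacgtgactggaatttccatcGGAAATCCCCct
Irf1 (chr11:53769764-53770013, plus strand): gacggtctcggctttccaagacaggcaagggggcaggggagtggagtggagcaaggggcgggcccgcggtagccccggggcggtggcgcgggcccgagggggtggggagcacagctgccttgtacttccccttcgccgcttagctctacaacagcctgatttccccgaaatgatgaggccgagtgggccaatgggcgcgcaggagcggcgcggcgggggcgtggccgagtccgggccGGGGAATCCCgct
Zfp36 (chr7:28379229-28379478, minus strand): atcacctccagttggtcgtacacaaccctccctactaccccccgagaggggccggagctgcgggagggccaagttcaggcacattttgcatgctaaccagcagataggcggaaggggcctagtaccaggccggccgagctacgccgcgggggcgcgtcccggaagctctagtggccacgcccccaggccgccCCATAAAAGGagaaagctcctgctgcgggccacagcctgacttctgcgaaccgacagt
Dusp1 (chr17:26508473-26508722, minus strand): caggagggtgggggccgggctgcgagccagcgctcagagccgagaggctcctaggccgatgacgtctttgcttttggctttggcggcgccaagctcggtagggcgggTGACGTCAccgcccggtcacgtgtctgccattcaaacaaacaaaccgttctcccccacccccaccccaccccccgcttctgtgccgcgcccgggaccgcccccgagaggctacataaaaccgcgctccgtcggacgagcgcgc
Txnip (chr3:96557707-96557956, plus strand): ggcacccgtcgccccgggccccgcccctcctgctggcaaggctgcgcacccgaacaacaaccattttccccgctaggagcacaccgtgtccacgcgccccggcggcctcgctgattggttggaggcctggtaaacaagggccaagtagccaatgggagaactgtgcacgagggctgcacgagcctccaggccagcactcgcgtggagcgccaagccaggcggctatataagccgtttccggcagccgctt

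The host transcript of the microRNA miR-155, Mir155hg, rose as well. It had at most 2 counts in a library at 0 h and 36.4, 48.3, 57.9 and 52.4 CPM at 1 h, at least 209-fold higher. The 4 libraries at 1 h all lay above the floor, with replicate 1 lowest. The mature microRNA processed from this transcript targets Socs1 among others. It was not measured here, and its sequence (RefSeq, GRCm38.p6, chr16:84714143-84714165, plus strand) is shown with the seed, bases 2 to 8, in capitals because the seed decides which mRNAs it binds.
mmu-miR-155-5p: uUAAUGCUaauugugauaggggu

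AP-1 and related basic leucine zipper genes responded in part. Of 23 tested, 7 rose, none fell and 16 were not called (median log2 fold change 0.48). Of all genes tested, 3.23% rose and 1.3% fell. Junb went from 69.4, 70.9, 74.5 and 81.9 CPM to 928, 818, 761 and 819 CPM (log2 fold change 3.49 ± 0.21). Fosb rose by 4.35 ± 0.20 and Maff, a small MAF protein, by 4.68 ± 0.16, and in none of these genes did the groups overlap. Atf3, a repressor of inflammatory genes, was at 396 ± 31.4 CPM at 0 h already and had a log2 fold change of 0.88 ± 0.07, past the threshold for p but within the limit on size. Among the other immediate-early genes, 15 of 28 rose, 1 fell and the median was 1.38. Csrnp1, a nuclear protein first found as a target of axin, rose by 6.55 ± 0.22, Ier2 by 3.92 ± 0.16, Ier3 by 3.41 ± 0.11 and the antiproliferative gene Btg2 by 3.41 ± 0.15. The gene that fell was Ier5l, from 2.55, 2.65, 2.61 and 2.54 CPM to 0.428, 0.677, 0.957 and 0.676 CPM.

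Genes of adhesion, coagulation and costimulation rose as well. Sele, E-selectin, had at most 1 count in a library at 0 h and 86.6, 89.7, 80.5 and 95.8 CPM at 1 h, at least 379-fold higher. Of 32 genes of adhesion, costimulation and scavenging, 14 rose, among them Icam1 (2.46 ± 0.11), Cd40 (3.47 ± 0.15), Cd83 (3.27 ± 0.12) and the coagulation starter F3 (3.92 ± 0.12). Of 24 genes of prostaglandin, nitric oxide, adenosine and glucose metabolism, 7 rose (6 without replicate 3 at 1 h, when Nos2 was not called). Ptgs2, the inducible cyclooxygenase, went from 1.62 ± 0.305 to 286 ± 26.5 CPM, and the mitochondrial superoxide dismutase Sod2 rose by 2.22 ± 0.07. Of 21 genes of cell death and survival, 9 rose (8 without replicate 3 at 1 h), among them the inflammasome sensor Nlrp3 (2.87 ± 0.08) and the proapoptotic Bcl2l11 (1.74 ± 0.10). None of the 9 MHC class II genes was called, although 4 passed the threshold for p. H2-Aa had a log2 fold change of 0.79 ± 0.16 and the invariant chain Cd74 one of 0.70 ± 0.16. Their list median was 0.68, and 0.37 without replicate 3 at 1 h.

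Of 35 interferon-stimulated genes and IRF factors tested, 10 rose and none fell (3.23% of all genes tested rose), with a median log2 fold change of 0.53 (0.38 without replicate 3 at 1 h, when 9 rose). Irf1, a primary response gene of both NF-kB and interferon-gamma with a kB site in the promoter shown above, had 57.2, 52.0, 52.8 and 57.6 CPM at 0 h and 1099, 836, 1027 and 862 CPM at 1 h (log2 fold change 4.12 ± 0.10). Isg15, a ubiquitin-like modifier, rose by 2.62 ± 0.17 and Ifit1 by 1.78 ± 0.14, whereas the groups overlapped for Mx1 (log2 fold change 0.34 ± 0.15, adjusted p = 0.17, edgeR). The mean of Ifit1 at 5 h was 7081 ± 768 CPM, against 40.2 ± 6.72 at 1 h.

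Some genes depended on 1 library. Cxcl9, a T cell attractant, had 0.273, 0.379, 0 and 0.159 CPM at 0 h and 0.342, 0.602, 11.4 and 0.901 CPM at 1 h, and only replicate 3 lay above the 0 h range by more than 1 CPM. Gbp2, a guanylate-binding protein, had 85.7, 52.4, 211 and 66.5 CPM at 1 h against 31.6 ± 0.395 at 0 h. Gbp4 and Iigp1, named after their values were seen, had 1.03, 1.13, 12.8 and 1.20 CPM and 4.11, 7.90, 33.1 and 6.16 CPM at 1 h, again with replicate 3 highest. Irf1 and Cxcl10 were highest in replicate 1. Of the genes that rose, 11 were over 2 times higher in replicate 3 than in each of the other 1 h libraries, against 2, 0 and 0 such genes for replicates 1, 2 and 4. These 11, listed after their values were seen, were Cxcl9, Gbp2, Gbp3, Gbp4, Gbp6, Iigp1, Nos2, Tgtp2, Serpina3f, Serpina3g and Cnn3. Whether this library differed in another way was not tested. Without replicate 3, 3 of the 11 were still called, Gbp2 with a log2 fold change of 1.11 ± 0.18 (adjusted p = 3.3e-05, edgeR), while Cxcl9 had 1.53 ± 0.76 (adjusted p = 0.29). Gbp5, at 38.8, 24.2, 65.7 and 35.0 CPM, still rose without it (2.84 ± 0.18).

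Among all genes tested 3.23% rose, and the lists of receptors, lineage factors and cell cycle genes are given beside that share. Of 30 genes of the TLR pathway, 4 rose, among them Tlr2 (2.34 ± 0.12) and the LPS coreceptor Cd14 (1.36 ± 0.18). Tlr4 itself overlapped between the groups (244, 187, 206 and 131 CPM at 0 h, 118, 135, 169.8 and 139 CPM at 1 h), and the adaptor Tirap had a log2 fold change of -0.97 ± 0.10, just within the limit on size. Of 43 surface receptors of resting macrophages, 1 rose, the interleukin-10 receptor subunit Il10ra (1.31 ± 0.14), a count near that share. Csf1r and Adgre1, which mark macrophages, had log2 fold changes of 0.15 ± 0.13 and 0.04 ± 0.12. Among 33 macrophage transcription factors, 2 rose, Cebpb (2.34 ± 0.13) and Tfec. Of 24 cell cycle genes, 3 rose, all of them stress or early response genes (Cdkn1a, Plk2 and Plk3), and Mki67 had 0.94 ± 0.20 without a call. Of 15 sterol genes 1 rose, Insig1. Tirap was called as falling in 5 of 18 alternative fits, among them scaling by total counts alone, and Mki67 as rising in 2 of 18. With scaling by total counts alone, Tfec and Insig1 were not called. None of 14 reference genes was called, and Actb had a log2 fold change of -0.02 ± 0.08. Their median was 0.02.

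**Figure D3:**
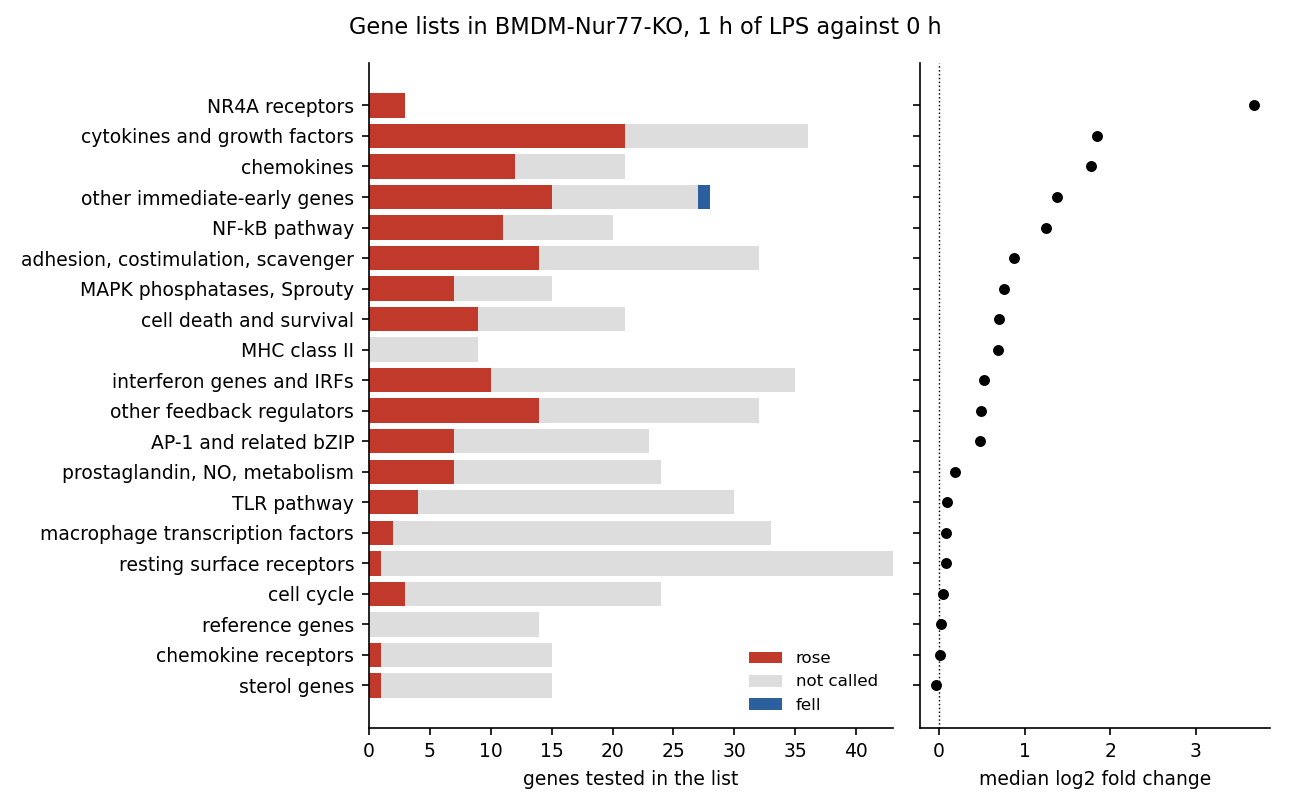
Left, number of genes tested in each of 20 gene lists that rose (red), were not called (grey) or fell (blue) in BMDM-Nur77-KO after 1 h of LPS. Right, median log2 fold change of each list, with a dotted line at the median of all genes tested. Lists of cytokines, chemokines, immediate-early genes and the NF-kB pathway lie to the right, and those of reference genes, receptors and sterol genes lie at the line.

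Genes that fell were of another kind. Txnip, an arrestin-like inhibitor of thioredoxin and of glucose uptake, lost most counts of all genes that fell. It had 644, 727, 671 and 747 CPM at 0 h and 152, 148, 166 and 181 CPM at 1 h, so that 23.2% of its level remained (log2 fold change -2.11 ± 0.11, adjusted p = 1.4e-16, edgeR). Gm15441, a noncoding transcript whose annotated span encloses that of Txnip (chr3:96555768-96566801 around chr3:96557957-96561857), had a log2 fold change of -2.03 ± 0.17. Libraries were strand-specific, but the strand setting behind the default counting of HOMER is not spelled out in the sources used here, so reads of the one may have been counted for the other. Arrdc3, another arrestin-like gene, went from 102, 117, 104 and 95.6 CPM to 49.6, 48.2, 52.2 and 54.5 CPM (-1.03 ± 0.15). It did not keep its call when replicate 2 at 0 h was left out (-0.97 ± 0.17). Cd300lb, an activating receptor of myeloid cells, fell from 378, 352, 368 and 373 CPM to 140.3, 159, 149 and 151 CPM (-1.29 ± 0.07). Named after their values were seen, the cannabinoid receptor Cnr2 fell from 33.6 ± 2.19 to 12.7 ± 1.34 CPM, Angptl4, an inhibitor of lipoprotein lipase, from 4.70 ± 0.609 to 1.51 ± 0.282 CPM, the proapoptotic Bmf from 8.13 ± 1.64 to 3.33 ± 0.232 CPM, and Pik3ip1, an inhibitor of phosphoinositide 3-kinase, from 3.73 ± 0.631 to 1.74 ± 0.260 CPM.

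Many of the genes that fell had symbols of zinc finger proteins. Most Zfp genes encode transcription factors with arrays of C2H2 zinc fingers, many with a KRAB domain that recruits a corepressor, and many lie in clusters of related copies. Zfp748 had 10.7, 12.6, 12.6 and 9.23 CPM at 0 h and 1.20, 1.28, 1.99 and 2.1 CPM at 1 h (log2 fold change -2.77 ± 0.23, adjusted p = 3.6e-11, edgeR). Zfp87, its neighbour on chromosome 13 (chr13:67515781-67526231 beside chr13:67538641-67553152), went from 10.8, 11.8, 11.1 and 9.30 CPM to 1.88, 1.81, 1.75 and 2.55 CPM (-2.42 ± 0.14). In both genes the 1 h libraries lay well below those at 0 h. Of the 10 largest falls taken by the rule on named genes, 8 had such a name, with log2 fold changes of -1.83 ± 0.17 for Zfp799, -1.65 ± 0.15 for Zfp866, -1.61 ± 0.20 for Zfp709, -1.56 ± 0.33 for Zfp958, -1.50 ± 0.13 for Zfp280b and -1.49 ± 0.09 for Zbtb34. Zfp120, one of the 5 called genes that lost most CPM, went from 44.7, 44.4, 45.3 and 31.3 CPM to 13.7, 20.6, 21.2 and 19.7 CPM.

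Symbols that start with Zfp, Zscan, Zkscan or Zbtb, a grouping made after the values were seen and therefore not tested, numbered 316 among the genes tested. Of these, 77 fell (24.4%), 10 rose and 229 were not called, and 83.5% had a log2 fold change below 0. They made up 52.4% of all genes that fell. Among the other 10963 symbols, 70 fell (0.639%). The zinc finger symbols had a median log2 fold change of -0.49, against 0.00 for the other symbols. By prefix, 68 of 265 Zfp, 4 of 9 Zscan, 2 of 7 Zkscan and 3 of 35 Zbtb genes fell. The genes that rose included Zfp36 and Zfp36l1, which are RNA-binding CCCH proteins of another family, and Zfp719, which rose by 2.45 ± 0.15. Chromosomes 7, 17 and 13 held the most zinc finger symbols that fell, 21, 15 and 13 of 63, 43 and 29 tested there. Shares were similar on chromosomes 10 (3 of 7) and 15 (3 of 8), and none of 6, 8 and 10 fell on chromosomes 1, 12 and 18. The 316 genes had a median level of 2.80 RPKM at 0 h, against 8.10 RPKM for the other symbols, and between 69 and 79 fell when 1 library of the comparison was left out. Reads that map to several copies were removed by the filter on mapping quality, so the levels of near-identical copies are uncertain. In BMDM-WT, 77 of the 316 fell too (median log2 fold change -0.43).

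**Figure D4:**
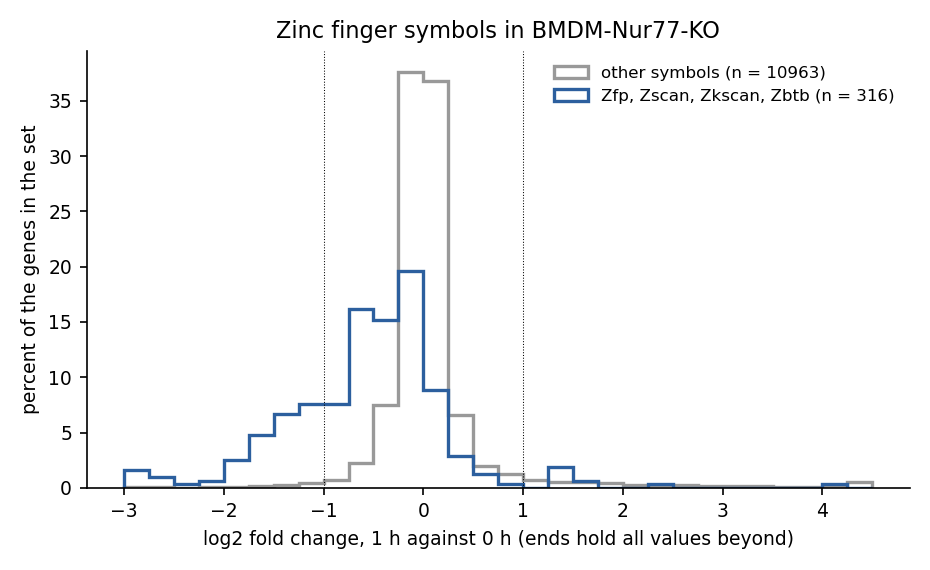
Distribution of the log2 fold change between 1 h and 0 h of LPS in BMDM-Nur77-KO for 316 zinc finger symbols (blue) and 10963 other symbols (grey), as the percent of each set per bin of 0.25. The blue curve is shifted to the left, with a tail below -1, and the grey curve is centred on 0.

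The mean levels at 5 and 18 h place the 1 h response in time. These values share the 0 h libraries and the genes were chosen at 1 h, so they are given as a description. Replicates at the later times were uneven. A chi-square per gene reached 118.9 between replicates 1 and 4 at 5 h and 61.5 between replicates 2 and 4 at 18 h. Between knockout replicates at 0 h or 1 h it was at most 15.3. How the means below depend on single libraries at 5 and 18 h was not tested. Of the 364 genes that rose, 151 had their highest mean at 1 h, 155 at 5 h and 58 at 18 h. For all 11279 genes tested these numbers were 2258, 3040 and 3379. Tnf (994 ± 248 CPM at 5 h and 432 ± 63.2 at 18 h), Cxcl2 (121 ± 9.03 and 20.7 ± 1.69) and Dusp1 (168 ± 28.6 and 163 ± 11.1) were highest at 1 h. Il1b (2112 ± 127 and 433 ± 56.1) and Socs3 (690.0 ± 218 and 172 ± 29.8) were highest at 5 h, and Ccl5 (1356 ± 429 and 4424 ± 924) at 18 h. Of the 147 genes that fell, 113 had their lowest mean at 1 h and 30 at 5 h, against 1873 and 3712 of all genes tested. Zfp748 was back at 9.76 ± 3.10 CPM at 5 h. Cd300lb, by contrast, continued to 5.96 ± 0.878 CPM at 5 h and was at 54.2 ± 3.02 at 18 h. Over the genes that fell, the median log2 ratio to 0 h (of CPM + 0.25) was -1.23 at 1 h, -0.68 at 5 h and 0.06 at 18 h.

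The same comparison in BMDM-WT, which shares no library with the knockout, called 387 genes that rose (3.43%) and 198 that fell (1.76%). Both lists held 321 of the genes that rose, 88.2% of the list of BMDM-Nur77-KO and 82.9% of that of BMDM-WT. They also shared 112 of the genes that fell, 76.2% of the one and 56.6% of the other. No gene was called in opposite directions. A call in 1 genotype alone does not show a difference. Differences of response are given from the fit of all 32 libraries, and their number depended on the fit. Of 43 genes called as rising in BMDM-Nur77-KO only, 42 also had a positive log2 fold change in BMDM-WT, and edgeR called a different response for none of the 43 (17 had an unadjusted p under 0.05). The 35 genes called as falling in the knockout only all had a negative log2 fold change in BMDM-WT, and again edgeR called no difference of response (4 had an unadjusted p under 0.05). Of the genes called in BMDM-WT only, 66 rose and 86 fell, and the response differed for 2 and 1 of them.

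Tested directly in the fit of all 32 libraries, the response at 1 h differed between the genotypes in 8 of 11279 genes (0.0709%). In that fit, 1251 (11.1%) had an unadjusted p under 0.05. From the 16 libraries compared alone, 274 genes differed. Of the 8 differences, 5 were positive, that is, the log2 fold change was larger or less negative in BMDM-Nur77-KO. Irf1 had the smallest p. Its level in BMDM-WT was 106, 77.4, 97.2 and 103 CPM at 0 h and 1003, 923, 867 and 866 CPM at 1 h, so that all knockout libraries lay lower at 0 h and overlapped with wild type at 1 h. Its log2 fold change was 4.12 ± 0.10 in BMDM-Nur77-KO and 3.25 ± 0.10 in BMDM-WT, a difference of 0.87 ± 0.13 (adjusted p = 0.0028, edgeR).

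The other positive differences had the same form, a lower level of the knockout at 0 h. The 0 h levels enter the test of the difference, so they are given as a description. Zfp36 in BMDM-WT had 172, 153, 175 and 167 CPM at 0 h and 1821, 1963, 1741 and 1801 CPM at 1 h, and its response differed by 0.67 ± 0.11 (adjusted p = 0.0083, edgeR). Stat2, which transmits the signal of type I interferon, went from 62.9, 61.7, 58.9 and 73.9 CPM to 36.6, 34.0, 44.9 and 41.4 CPM in BMDM-Nur77-KO and from 91.1, 86.7, 92.5 and 79.4 CPM to 33.1, 35.6, 31.7 and 35.5 CPM in BMDM-WT (difference 0.65 ± 0.12, adjusted p = 0.015). Irf7, the factor that amplifies the interferon response, went from 8.74, 10.6, 12.3 and 13.0 CPM to 17.4, 15.6, 18.7 and 21.8 CPM in the knockout and from 18.8, 19.2, 26.9 and 19.4 CPM to 19.0, 19.8, 15.8 and 17.5 CPM in wild type (difference 0.94 ± 0.19, adjusted p = 0.042). In Irf7 and Stat2, as in Irf1 and Zfp36, the genotypes were apart at 0 h and overlapped at 1 h. Cxcl10, an interferon-inducible T cell attractant, was lower in the knockout at both times. It had 1.82, 1.96, 2.15 and 3.02 CPM and 119, 94.5, 113 and 116 CPM in BMDM-Nur77-KO, and 4.88, 4.98, 5.60 and 6.24 CPM and 162, 155, 143 and 164 CPM in BMDM-WT (difference 0.78 ± 0.15, adjusted p = 0.035, edgeR).

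In 3 genes the difference was negative, with a higher level of the knockout at 0 h. Dusp16, a phosphatase of JNK and p38, went from 20.6, 20.3, 21.6 and 20.2 CPM to 38.1, 31.0, 35.4 and 33.7 CPM in BMDM-Nur77-KO and from 14.7, 15.5, 12.9 and 16.8 CPM to 38.4, 42.3, 40.1 and 42.4 CPM in BMDM-WT (difference -0.70 ± 0.13, adjusted p = 0.015, edgeR). The genotypes thus changed places between 0 h and 1 h without overlap at either time. Mex3c, an RNA-binding ubiquitin ligase, went from 71.0, 58.5, 62.1 and 53.1 CPM to 83.1, 85.7, 84.2 and 84.4 CPM in the knockout and from 39.2, 43.1, 40.8 and 42.7 CPM to 87.1, 83.5, 86.6 and 94.7 CPM in wild type (difference -0.62 ± 0.12, adjusted p = 0.035). For Tnfaip3, BMDM-WT had 103, 115, 114 and 112 CPM at 0 h and 2772, 2709, 2588 and 2532 CPM at 1 h, and the difference was -0.40 ± 0.08 (adjusted p = 0.04), the smallest of the 8. Among the 8, Irf1 kept its call in all 25 alternative fits, Zfp36 in 24, Dusp16 in 20, Stat2 in 19, Cxcl10 in 13, Mex3c in 9, Irf7 in 8 and Tnfaip3 in 6, and none changed direction. Of the list of interferon genes and IRF factors, 3 members are among the 8. Over that list, 10 of 35 rose in the knockout and 7 in wild type, with medians of 0.53 and 0.09, and for the 9 MHC class II genes the medians were 0.68 and 0.11. Without replicate 3 at 1 h, 9 of the 35 rose in the knockout, and its medians were 0.38 and 0.37. The difference between the genotypes over a list was not tested. The number of genes with a differing response depended on the fit. It was 274 when the spread was estimated from the 16 libraries of these 4 groups alone, 25 with DESeq2's Wald test, and between 2 and 9 when 1 library was left out. The spread of the main fit also draws on the uneven 5 h and 18 h libraries, and what this does to the count was not tested.

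**Figure D5:**
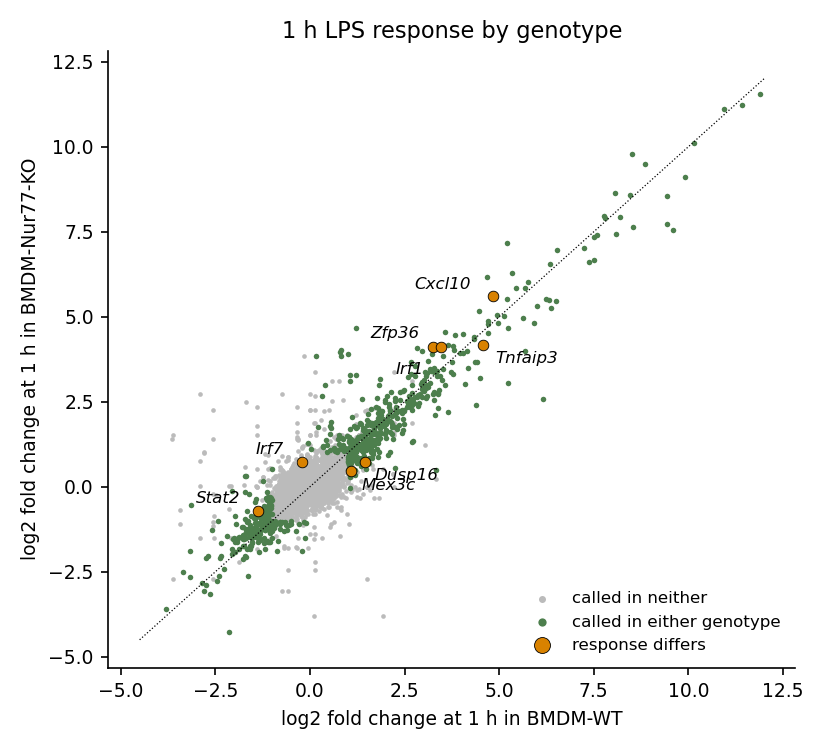
Log2 fold change between 1 h and 0 h of LPS in BMDM-Nur77-KO (y axis) against that in BMDM-WT (x axis), 1 point per gene tested. Green points were called in either genotype, orange points are the 8 genes whose response differed, and the dotted line marks equal responses. Irf1, Zfp36, Cxcl10, Stat2 and Irf7 lie above the line, and Tnfaip3, Dusp16 and Mex3c below it.

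Exon number, base composition and length are given without a test, and length enters the RPKM filter on the genes tested. Of the genes that rose 38.7%, and of those that fell 38.1%, had 3 exons or fewer, against 15.8% of all genes tested. Transcripts of genes that fell had a median GC content of 46.2%, against 50.1% for genes that rose and 50.2% for all genes tested, and median lengths were 3065, 2479.5 and 2764 bases.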

How the data were processed

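RNA of bone marrow-derived macrophages was sequenced from libraries made strand-specifically with the KAPA mRNA HyperPrep kit. Per the submitters' processing notes and the study's methods, reads were base-called with CASAVA 1.8.2, aligned to mm10 with HISAT2 2.1.0, filtered with SAMtools 1.16.1 for a mapping quality over 15 and counted per RefSeq transcript with HOMER at its default settings. The deposited values are estimated counts, not normalized by the authors, in steps of 0.5 tag, and were rounded to whole counts here. The strand setting of these defaults is not spelled out in the sources used here. Transcripts without a gene name held 0.233% to 1.37% of the tags of a library and were left out. The transcript with the highest mean count stood for each gene, and genes were tested where any of the 8 group means passed 1 RPKM.

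Counts of all 32 libraries were fitted with edgeR 4.0.16 (R 4.3.3, quasi-likelihood test, TMM, 8 group means), which was checked on simulated counts. All adjusted p-values are Benjamini-Hochberg values over the 11279 genes tested. Errors are SD for CPM and SE for log2 fold changes. Alternatives used DESeq2 1.42.0, other scalings, filters and limits, each library left out, and a replicate block. Leaving out replicate 4 at 0 h with replicate 1 at 1 h, and the gene lists without replicate 3 at 1 h, were chosen after seeing the data. A gene at or under 3 counts in each 0 h library was given a lower bound against 3 counts per library. The genes and lists described were chosen with earlier results of these data known. Named were the NR4A genes, the 10 largest changes each way among called genes whose groups did not overlap and whose higher group had at least 10 CPM, the 10 called genes that gained most CPM and the 5 that lost most, all genes whose response differed between genotypes, and members of the gene lists. Others are said to be named after their values were seen.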

Additional observations from a re-analysis of the deposited data

Results flagged for a closer look

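In 13 of 206 groups of 4 libraries, 1 library lay further from the other 3 than Dixon's 95% limit allows, and chance flags about 1 in 20 such groups. The 206 include genes named after their values were seen, among them Gbp4, Iigp1 and Bmf, so the 13 cannot be read against that rate. Of these, 3 were replicate 4 at 0 h of BMDM-Nur77-KO: Zfp120 was lowest there at 31.3 CPM (44.4 to 45.3 in the others), Csf1r highest at 1642 CPM (1372 to 1416) and Bmf highest at 10.6 CPM (7.08 to 7.59). Another 3 were replicate 1 at 1 h, which was highest for Tnfaip3 at 2526 CPM (2346 to 2367), for Dusp2 at 180.1 CPM (144 to 147) and for Csf1r at 1765 CPM (1567 to 1577). Both libraries also lay apart on the second principal component, and without both 348 genes rose and 130 fell.

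Replicate 3 at 1 h was highest for Cxcl9 at 11.4 CPM (0.342 to 0.901 in the others), for Gbp4 at 12.8 CPM (1.03 to 1.20) and for Iigp1 at 33.1 CPM (4.11 to 7.90). Without it, the log2 fold change of Gbp4 was 0.07 and that of Iigp1 0.70, and neither was called by edgeR. Replicate 1 at 0 h was lowest for Tnf at 26.4 CPM (31.9 to 32.4) and highest for Zbtb34 at 31.2 CPM (25.4 to 26.4). Replicate 4 at 1 h was highest for Zfp87 at 2.55 CPM (1.75 to 1.88), and replicate 2 at 1 h lowest for Ccl3 at 484 CPM (525 to 531).

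The response at 1 h differed between BMDM-Nur77-KO and BMDM-WT in 8 genes by the test of the difference itself in edgeR. On the log2 scale, knockout minus wild type, the differences were 0.87 for Irf1, 0.67 for Zfp36, 0.65 for Stat2, 0.78 for Cxcl10, 0.94 for Irf7, -0.70 for Dusp16, -0.62 for Mex3c and -0.40 for Tnfaip3. In all 8 genes the untreated libraries of the genotypes did not overlap at 0 h. These 0 h values enter the test that picked the genes, so this is a description and not a separate result.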

How the results depend on the processing

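The 364 genes that rose became 376 with DESeq2, 337 with scaling by total counts alone, 399 with no filter on low counts and 350 to 369 with 1 library left out. The 147 that fell became 143, 181, 177 and 135 to 155 in these fits. Calls of the knockout change at 1 h were compared over 18 alternatives or fewer for each of 103 named genes. Of these calls, 1834 of 1852 were the same and none changed direction. Many of the genes were named for the size of their change, and calls of a differing response are not included. With every transcript as deposited, 611 rose and 231 fell in BMDM-Nur77-KO, and 661 and 341 in BMDM-WT. A log2 limit of 0.58 gave 326 that fell in the knockout, and 609 that rose and 561 that fell in wild type. With no limit on size, 774 were higher and 606 lower in the knockout, and 1146 and 1146 in wild type. Scaling by total counts alone moved the median of all genes from 0.00 to -0.11 and turned the split of 774 and 606 (56.1% higher) into 619 and 1240 (33.3% higher). In BMDM-WT, 367 to 393 genes rose and 187 to 217 fell with 1 library left out.

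The count of differing responses, 8 (7 with an absolute log2 value over 0.58), was 25 (19) with DESeq2, 3 (3) with no filter on low counts, 274 (88) from the 16 libraries compared alone, and 2 to 9 (2 to 8) with 1 library left out. It was 5 or fewer without replicate 1, 2 or 3 of the knockout at 0 h, its replicate 1, 3 or 4 at 1 h, replicate 3 or 4 of wild type at 0 h, or its replicate 1, 2 or 3 at 1 h. With the replicate block it was 4 (3), and Zfp36 had an adjusted p of 0.053 (2.1e-05 to 0.053 over its alternatives, edgeR or DESeq2). The cause of these shifts was not tested. The block called 349 genes that rose and 143 that fell in the knockout. Libraries with the same number did not deviate together (correlations from -0.145 to 0.068 in either genotype), so the numbers were not taken as pairs.

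At this depth, 3 counts are about 0.233 CPM, and changes of genes near that level were not detectable with precision. Counting intervals would cover counting error only, and animals behind the libraries are not stated.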
